A study of Homo sapiens with 6 samples.

Results

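The replication-dependent histone genes encode the core and linker histones that package newly made DNA. They were taken here as the genes annotated as protein coding whose symbol starts with HIST1H, HIST2H, HIST3H or HIST4H, which gave 71 of the 58735 genes in the count table. The RNA came from Ovcar8, an established human line of high-grade serous ovarian cancer grown in RPMI-1640 medium, and the study asked about quiescence after serum withdrawal. The groups were 3 serum-starved libraries (48 h without fetal bovine serum, FBS) and 3 libraries with 5% FBS over the same 48 h. All results rest on this single line. Whether replicate libraries derive from separate cultures is not labelled, and p-values therefore reflect only how far these 6 libraries scatter.

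Most histone protein in dividing cells is made during S phase, from clustered genes that mostly lack introns. Their mRNAs end in a conserved stem-loop in place of a poly(A) tail. The stem-loop binding protein SLBP holds this structure and, with the U7 small nuclear ribonucleoprotein, directs cleavage just past it, and the same structure marks the mRNA for decay when DNA synthesis stops. Some of these genes can also be read through to a downstream polyadenylation site, which gives polyadenylated transcripts. Replacement variants such as H3.3 and H2A.Z come from separate genes with ordinary polyadenylated mRNAs. Since the RNA is from bulk cultures, fewer cells in S phase and less histone mRNA per cell cannot be told apart.

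By class the 71 genes comprised 6 for the linker histone H1, 17 for H2A, 18 for H2B, 15 for H3 and 15 for H4. The HIST1 cluster on chromosome 6 held 55 of them. Another 12 HIST2 and 3 HIST3 genes lay on chromosome 1, and the single HIST4 gene lay on chromosome 12. A histone stem-loop was found in the annotated GENCODE 29 transcripts (GRCh38) of 32 of the 71 genes (45.1%) and in 15 of 19613 other protein-coding genes (0.0765%). Of the 16-base loop elements, 17 genes shared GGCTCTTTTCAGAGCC (6 H2A, 8 H2B and 3 H3 genes) and 5 shared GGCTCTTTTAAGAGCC (3 H2B and 2 H3 genes). The H4 loops differed at a base pair inside the stem, with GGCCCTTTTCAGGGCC in 5 genes and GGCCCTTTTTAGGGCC in 3. HIST1H3E and HIST1H2AG each had an element of their own. The 39 genes without a match mostly had transcripts annotated no further than the coding sequence. The elements below are those of genes whose levels are described later, 5′ to 3′ on the transcribed strand, with the stem-loop in capitals and 5 transcript bases on either side.
HIST3H2A, chr1:228457369-228457384, minus strand: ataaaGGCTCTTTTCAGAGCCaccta
HIST1H2AC, chr6:26124669-26124684, plus strand: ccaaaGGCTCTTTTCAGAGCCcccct
HIST1H2BH, chr6:26252055-26252070, plus strand: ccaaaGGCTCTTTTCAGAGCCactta
HIST1H2BC, chr6:26123472-26123487, minus strand: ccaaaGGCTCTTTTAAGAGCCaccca
HIST1H2BG, chr6:26216218-26216233, minus strand: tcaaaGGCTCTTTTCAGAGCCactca
HIST1H3H, chr6:27810516-27810531, plus strand: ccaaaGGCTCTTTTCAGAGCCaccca
HIST1H4I, chr6:27139654-27139669, plus strand: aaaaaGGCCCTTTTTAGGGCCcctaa
HIST1H4J, chr6:27824459-27824474, plus strand: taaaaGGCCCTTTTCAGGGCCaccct

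The 6 libraries held between 16379416 and 19558484 counts assigned to genes. Of the carcinoma line markers, PAX8 stood at 59.3 to 86.0 CPM (counts scaled to library size, here with TMM scaling between libraries) and KRT7, KRT8, KRT18 and MSLN were read in every library. WT1 and EPCAM stayed under 4 CPM, KRT19 had 5 counts in all, and MUC16 was at 0 throughout. Fibroblast markers summed to 762 to 831 CPM in serum-starved libraries and 318 to 576 CPM in libraries with FBS, nearly all of it COL1A1, with COL1A2 and DCN at 0. Endothelial markers summed to 1.64 to 4.55 CPM in serum-starved libraries and 0.609 to 0.833 CPM in libraries with FBS. Of this the single gene VWF held 4.21, 1.32 and 2.64 CPM in serum-starved libraries and 0.304, 0.476 and 0.260 CPM with FBS. Leukocyte markers summed to at most 1.17 CPM. The part of these marker genes in the histone values was not tested.

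The histone genes held few counts in these libraries. The 71 genes together took 134 CPM of the pooled counts, against 2683 CPM for the 12 replacement variant genes. These sums are not scaled to length, and the median gene length was 509 bases for the 71 genes and 2323.5 for the variants. At least 1 count was found for 59 of the 71, at least 10 counts in a library for 36, and a mean of at least 0.5 FPKM (the authors' deposited level, scaled to gene length and library size) for 30. The serum-starved libraries detected 40, 47 and 32 of the genes, and the libraries with FBS 52, 49 and 42. Detection of all genes in each library was not counted, so this difference is not read as a result about the histone genes. The filter on low counts kept 23 for testing, namely 3 H1, 5 H2A, 7 H2B, 5 H3 and 3 H4 genes. The 7 RNAs listed as non-polyadenylated outside the histones were also nearly absent: RN7SK, RN7SL1, RMRP, RPPH1, TERC and SCARNA2 were at 0 in all libraries and RN7SL2 had 99 counts. How RNA was selected is not given in the sources used here, and the part of that step in these levels was not tested.

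The reads were concentrated on few genes. HIST3H2A (3339 counts), HIST1H2BK (2843) and HIST1H2BH (1929) together held 56.8% of all member counts, and the 10 most counted genes held 81.9%. By class, H2B took 41.2%, H2A 33.3%, H4 11.1%, H3 7.33% and H1 7.06%. On the per-length FPKM scale HIST1H2BK was highest with a mean of 69.7 over the 6 libraries, rank 723 of 58735 genes, followed by HIST3H2A at 34.9 (rank 1443) and HIST1H1C at 11.8 (rank 3270).

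The annotation differed among the genes in a way the choice of members did not use. In 33 genes the gene model held only the coding sequence (at most 3 bases more), in 23 it ran more than 100 bases past the stem-loop, in 9 it ended within 100 bases of it, and 6 were of other kinds. Of the 23 models that ran past the stem-loop, 12 were kept for testing and none was at 0 in all libraries, and they held 58.3% of member counts. Of the 33 coding-only models, 6 were kept, 9 were at 0, and they held 33.3%, mostly through HIST1H2BK. An AATAAA in the last 60 annotated bases was present in 21 of the 71 genes, 11 of them tested. Longer models collect more counts at an equal level, so these counts do not compare levels.

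A total of 12 genes were at 0 in every library, which allows up to 3 counts a library (0.132 to 0.204 CPM). They were HIST1H1A, HIST1H1T, HIST1H2AA, HIST1H2AD, HIST1H2AK, HIST1H2AM, HIST1H2BA, HIST1H2BB, HIST1H3D, HIST2H3PS2, HIST3H3 and HIST1H4G. HIST1H1T, HIST1H2AA, HIST1H2BA and HIST3H3 are known as testis forms. In 5 others, HIST1H2AD, HIST1H2AK, HIST1H2AM, HIST1H3D and HIST2H3PS2, more than 85% of exon bases overlapped exons of another gene, and no other member had such an overlap. The part of this overlap in their counts was not tested. HIST2H3A and HIST2H3C have identical transcripts, so their reads cannot be told apart. HIST2H4A (4 transcripts) and HIST2H4B (3 transcripts) share an identical transcript, so reads from it cannot be told apart. The low values of these genes are uncertain. Close copies without exact identity were not searched for. HIST2H2AA3 and HIST2H2AA4, with 3 and 12 counts, have the same coding length and stem-loop flanks, so their values may be uncertain too.

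The summed histone level did not separate serum-starved cells from cells with FBS. All 71 genes together summed to 179, 138 and 91.6 CPM in the serum-starved libraries, against 136, 132 and 140 CPM in the libraries with FBS. The mean was 136 ± 43.5 CPM in serum-starved libraries and 136 ± 4.07 CPM with FBS (SD, n = 3 each), a ratio of 1.00. Without serum-starved replicate 1 the log2 ratio was -0.24, and without serum-starved replicate 3 it was 0.22. The serum-starved libraries thus reached both above and below all the others, and the spread within that group was far wider. The replacement variants summed to 2715, 2764 and 2088 CPM in serum-starved libraries and 2937, 3013 and 2568 CPM in libraries with FBS, so serum-starved replicate 3 was also lowest there.

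Each class overlapped between the groups too. H1 summed to 11.0, 11.1 and 4.18 CPM in serum-starved libraries and 9.79, 12.6 and 9.41 CPM in libraries with FBS. H2A summed to 53.7, 50.7 and 24.8 CPM in serum-starved libraries and 42.6, 52.5 and 49.2 CPM with FBS. For these classes, as for H2B and H4, serum-starved replicate 3 lay below every other library. H2B summed to 80.7, 52.6 and 44.9 CPM in serum-starved libraries, against 55.9, 45.9 and 54.4 CPM with FBS. H3 summed to 12.8, 9.15 and 8.62 CPM in serum-starved libraries, against 9.54, 8.15 and 11.0 CPM with FBS. H4 summed to 20.4, 14.8 and 9.15 CPM in serum-starved libraries, against 18.1, 12.5 and 15.7 CPM with FBS. Serum-starved replicate 1 was the highest library for H2A, H2B, H3 and H4.

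**Figure D1:**
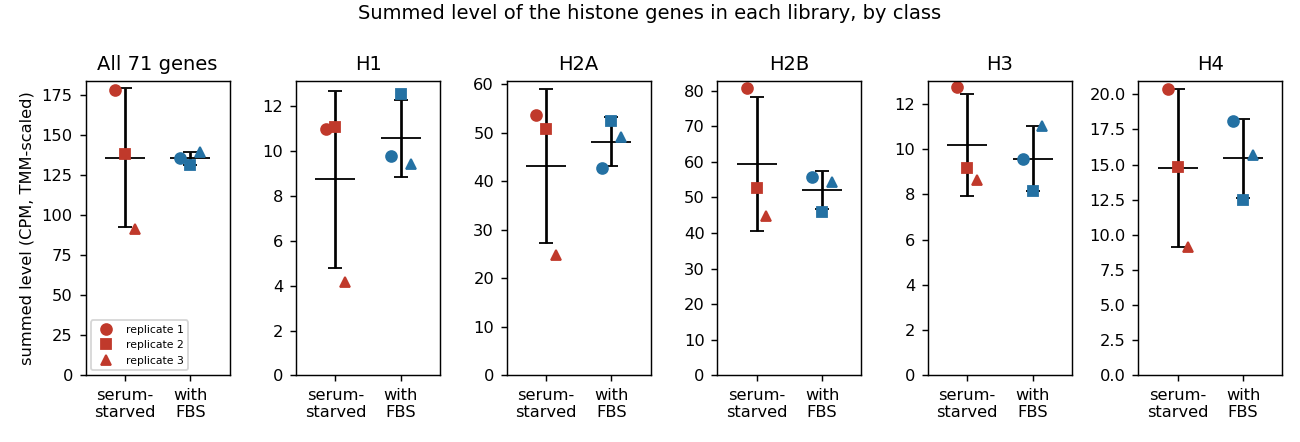
Summed level in CPM (TMM-scaled) of all 71 histone genes and of each class, serum-starved libraries left and libraries with FBS right. Points are libraries, with a bar for the mean and a line for the SD (n = 3 each); the all-gene means are 136 CPM in both groups, with the serum-starved libraries spread between 91.6 and 179.

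None of the 23 tested histone genes passed the threshold of an adjusted p under 0.05 in edgeR's quasi-likelihood test, fitted over 13772 genes, of which 0.283% passed. Of all genes 33 (0.240%) were higher and 6 (0.0436%) lower in serum-starved cells, and of the histone genes 0 and 0. DESeq2 and limma-voom also called 0 of the 23. The adjusted p-values from edgeR ran between 0.433 and 0.996 and the log2 fold changes of serum-starved over FBS between -1.16 and 2.03. At an unadjusted p under 0.05, 2 of the 23 were higher, against 6.01% of all tested genes, and 0 were lower, against 4.37%. The fold change was above 0 for 7 of the 23, against 48.5% of all genes, and below 0 for 16, against 51.5%. The median log2 fold change was -0.17 over the 23 and -0.02 over all genes. The standard errors of the 23 had a median of 0.60 on the log2 scale, against 0.38 over all genes.

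Among the H1 genes, HIST1H1C (chr6:26055787-26056428, coding-only model), which encodes linker histone H1.2, stood at 9.71, 9.87 and 2.42 CPM in serum-starved libraries and 7.81, 10.8 and 6.04 CPM in libraries with FBS. Its log2 fold change was -0.17 (SE 0.48, adjusted p = 0.936, edgeR). HIST1H1E, which encodes H1.4, had 0.815, 0.658 and 0.968 CPM in serum-starved libraries and 1.27, 0.536 and 1.62 CPM with FBS. Both genes overlapped between the groups, and serum-starved replicate 3 was the lowest library for HIST1H1C.

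Among the H2A genes, HIST3H2A (chr1:228456979-228457873, minus strand) carried the most counts, with 32.9, 37.6 and 17.1 CPM in serum-starved libraries and 27.5, 41.4 and 35.3 CPM with FBS. Its log2 fold change was -0.25 (SE 0.33, adjusted p = 0.849, edgeR). HIST1H2AC (chr6:26124145-26139116, plus strand), annotated with a spliced form that runs past the stem-loop, had 9.50, 5.92 and 3.61 CPM in serum-starved libraries and 5.73, 4.64 and 5.26 CPM with FBS. Its values with FBS lay inside the range of the serum-starved libraries, and its log2 fold change was 0.28 (SE 0.44, adjusted p = 0.877, edgeR).

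Among the H2B genes, HIST1H2BK (chr6:27146418-27146798, minus strand) had 40.4, 33.5 and 17.0 CPM in serum-starved libraries, against 24.2, 23.3 and 24.7 CPM with FBS. HIST1H2BH (chr6:26251651-26253710, plus strand) had 27.7, 10.5 and 16.1 CPM in serum-starved libraries, against 19.5, 16.1 and 19.9 CPM with FBS. Both spread around the narrow range seen with FBS, with log2 fold changes of 0.33 (SE 0.33, adjusted p = 0.787, edgeR) and -0.03 (SE 0.36, adjusted p = 0.986). The largest H2B differences were in genes with few reads. HIST1H2BC had 28, 6 and 58 counts in serum-starved libraries (1.90, 0.329 and 2.55 CPM) and 6, 11 and 3 counts with FBS (0.304, 0.655 and 0.195 CPM). HIST1H2BG had 46, 20 and 106 counts in serum-starved libraries (3.12, 1.10 and 4.66 CPM) and 36, 7 and 13 counts with FBS (1.83, 0.417 and 0.844 CPM). In both genes serum-starved replicates 1 and 3 were highest, while replicate 2 fell within the range seen with FBS. The log2 fold changes were 2.03 for HIST1H2BC (SE 0.89, adjusted p = 0.433, edgeR) and 1.51 for HIST1H2BG (SE 0.68, adjusted p = 0.454, edgeR).

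Among the H3 genes, HIST1H3H (chr6:27810064-27811300, plus strand) was the single tested member whose groups did not overlap, against 17.7% of all tested genes in either direction. It had 68, 52 and 94 counts in serum-starved libraries (4.62, 2.85 and 4.13 CPM) and 35, 31 and 34 counts with FBS (1.78, 1.84 and 2.21 CPM). All 3 serum-starved libraries lay above all 3 with FBS, by 1.99-fold in the fit (log2 fold change 0.99, SE 0.48, adjusted p = 0.495, edgeR). HIST1H3F had 1.09, 2.03 and 1.85 CPM in serum-starved libraries and 1.62, 1.55 and 2.6 CPM with FBS, which overlapped. HIST1H3E had the lowest fold change of the 23 (-1.16, SE 1.09) on few reads, with 0 counts in serum-starved replicate 3.

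Among the H4 genes, HIST1H4I (chr6:27138588-27139881, plus strand) had 11.3, 9.81 and 4.62 CPM in serum-starved libraries and 10.1, 8.51 and 7.85 CPM with FBS. HIST1H4J (chr6:27824108-27824480, plus strand) had 4.55, 2.52 and 1.5 CPM in serum-starved libraries and 4.26, 1.73 and 4.28 CPM with FBS. Both overlapped between the groups, with log2 fold changes of -0.05 (SE 0.40) and -0.27 (SE 0.54).

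**Figure D2:**
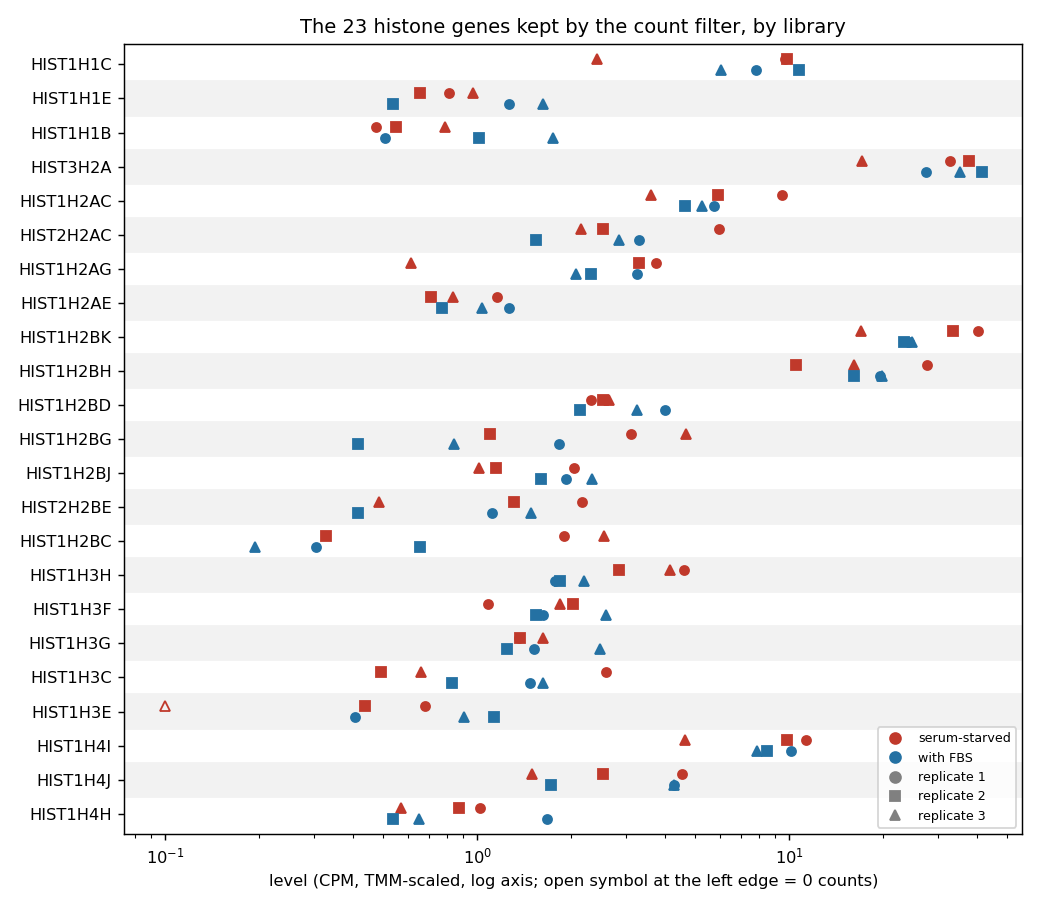
Level in CPM (TMM-scaled, log axis) of the 23 tested histone genes in each library, ordered by class and mean level, serum-starved values above and values with FBS below in each row. HIST1H3H is the single row where the groups do not overlap, and an open symbol marks 0 counts.

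The 48 genes below the filter held 5.17% of member counts. They summed to 7.47, 6.25 and 3.65 CPM in serum-starved libraries and 9.54, 6.66 and 8.50 CPM in libraries with FBS, which left serum-starved replicate 1 inside the FBS range. Of the 36 with at least 1 count, 20 were lower and 16 higher in serum-starved cells. The share lower was 55.6%, beside 55.6% of 9691 genes below the filter overall. HIST1H2AJ had 0 counts in all serum-starved libraries and 5, 8 and 1 counts with FBS. Set at a floor of 3 counts over the group, the serum-starved level was 5.01-fold lower. That ratio leaves out the error of the FBS counts, so it is not a lower bound. HIST1H2AH had 0, 2 and 0 counts in serum-starved libraries and 4, 9 and 7 with FBS. HIST1H3I had 0, 2 and 1 counts in serum-starved libraries and 6, 3 and 7 with FBS. The groups of these 3 genes did not overlap, and all 3 were below the filter, so they have no p-value here. The share of all genes below the filter without overlap was not counted. These 3 genes are therefore not read as a result about the histone genes. Counts were limited to the FBS libraries for 9 genes and to the serum-starved libraries for 3, against 3128 and 1635 of the genes below the filter overall.

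The libraries of both groups differed from one another along GC content and gene length. The 23 tested histone genes deviated in the direction of GC-rich and short genes in serum-starved replicates 1 and 3, but not in replicate 2. With FBS they deviated against the GC-rich genes in replicates 1 and 2. The part of GC content and length in the spread of the histone genes was not tested. The median log2 deviation of the 23 genes from their mean over libraries was 0.49, -0.12 and -0.45 in serum-starved replicates 1, 2 and 3. The decile of genes richest in GC deviated by 0.48, 0.10 and -0.47 in the same libraries, and the shortest decile by 0.17, 0.09 and -0.53. In libraries with FBS the 23 genes deviated by 0.15, -0.25 and 0.18 and the GC-rich genes by -0.27, 0.17 and 0.07. The shortest decile there deviated by 0.21, 0.19 and 0.13. The decile poorest in GC deviated by -0.70, -0.28 and 0.29 in serum-starved libraries and by 0.79, 0.01 and 0.06 with FBS. For GC-poor genes the furthest deviation of all libraries was thus in FBS replicate 1. The histone gene models were short, with a median of 895 bases for the 23 against 4799 bases for all tested genes, and near the average in GC content (51.2% against 50.7%).

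With a correction for GC content and length in each library, again 0 of the 23 passed, with 115 genes called in all (0.835%). The median log2 fold change of the 23 was then 0.18, and 13 of them lay above 0. At an unadjusted p under 0.05, 4 were higher and 0 lower, against 8.48% of all genes higher. These were HIST1H3H (log2 fold change 1.30, adjusted p = 0.169, edgeR), HIST1H2BG (1.90, adjusted p = 0.179), HIST1H2BC (2.44, adjusted p = 0.202) and HIST1H2AC (1.02, adjusted p = 0.270). The sign of the median therefore depended on the correction.

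**Figure D3:**
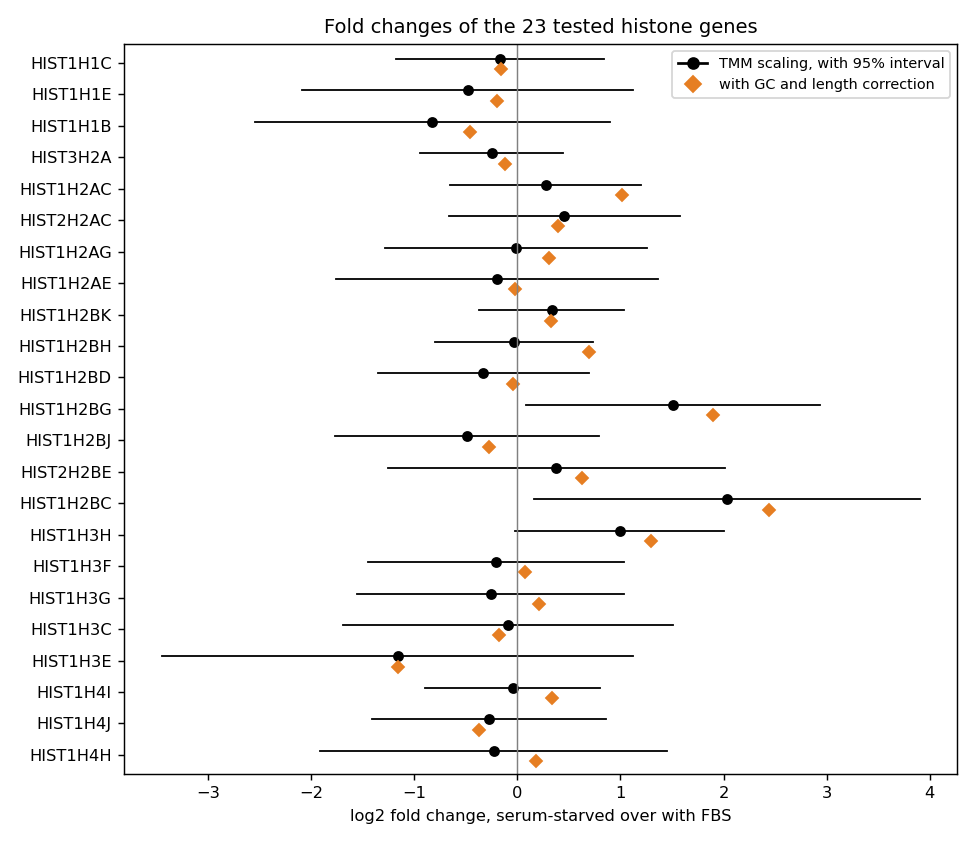
Log2 fold changes (serum-starved over FBS) of the 23 tested histone genes, with TMM scaling (black points with 95% intervals) and with the GC and length correction (orange diamonds). HIST1H2BC, HIST1H2BG and HIST1H3H sit highest under both, and the medians are -0.17 and 0.18.

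Many H2A and H2B genes sit back to back and share the sequence between their starts. In 11 such pairs the gene models started within 500 bases of each other, on opposite strands. The members of a pair could differ widely in level. HIST3H2A averaged 34.9 FPKM and HIST3H2BB, which starts 233 bases away, 0.154 FPKM, a 227-fold difference in the same direction in 6 of 6 libraries. HIST1H2BK averaged 69.7 FPKM and HIST1H2AH, 330 bases away, 0.549 FPKM, 127-fold apart in 6 of 6 libraries. HIST2H2AC averaged 7.66 FPKM and HIST2H2BE 0.519 FPKM, 14.8-fold apart in 6 of 6 libraries. Other pairs were close: HIST1H2AE averaged 1.85 FPKM and HIST1H2BG 1.27 FPKM, and HIST1H2BJ averaged 1.73 FPKM and HIST1H2AG 1.10 FPKM, each in the same order in 5 of 6 libraries. HIST1H2AC averaged 3.38 FPKM and HIST1H2BC 1.16 FPKM, also in 5 of 6. Coding-only and long models stand side by side in some pairs, and the part of the models in these ratios was not tested.

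**Figure D4:**
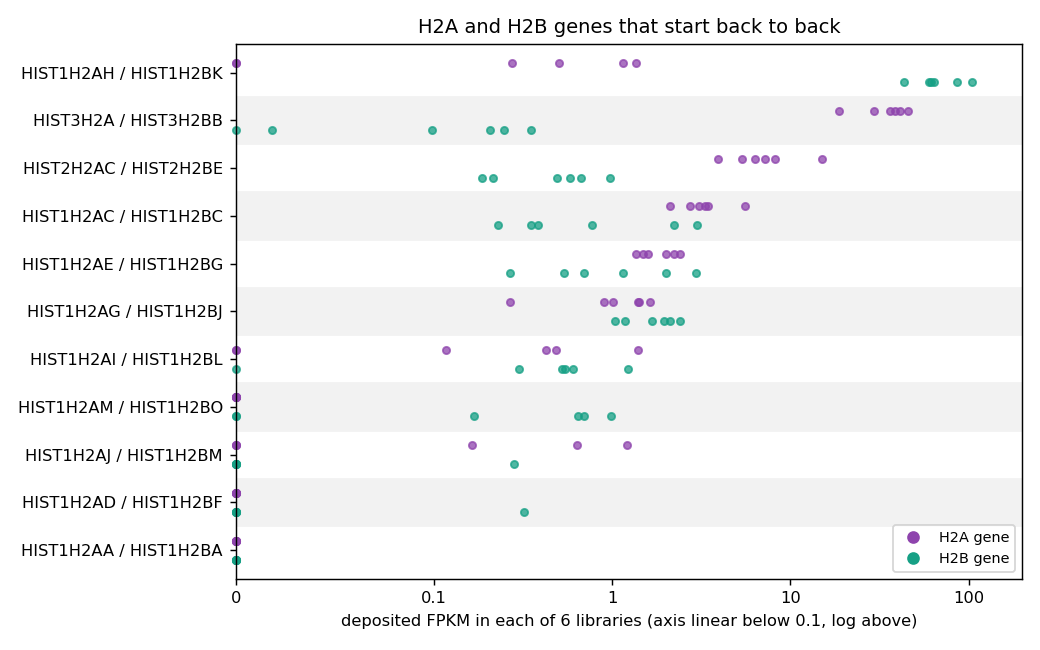
Deposited FPKM in each of the 6 libraries for the 11 back-to-back pairs, H2A gene above and H2B gene below in each row, on an axis that is linear below 0.1 and logarithmic above. The pairs with the widest separation are HIST3H2A with HIST3H2BB and HIST1H2BK with HIST1H2AH; values at 0 overlie each other.

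Both genes were tested in 4 of the pairs. HIST1H2BC had a log2 fold change of 2.03 beside 0.28 for HIST1H2AC, and HIST1H2BG 1.51 beside -0.20 for HIST1H2AE. HIST1H2BJ had -0.49 beside -0.02 for HIST1H2AG, and HIST2H2BE 0.38 beside 0.46 for HIST2H2AC. The differences within pairs were not tested.

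The promoter windows, from 250 bases before to 50 after the RefSeq start (GRCh38.p14), were matched for 66 of the 71 genes. They were searched on both strands for the octamer ATTTGCAT, which is bound by the transcription factor Oct-1, for CCAAT and for TATAAA. The octamer was in 14 of 18 H2B and 11 of 16 H2A windows and in none of the H1, H3 and H4 windows, against 1.80% of all 27305 windows. Windows of paired genes overlap, so the same site can count in both classes, as for HIST1H2AA and HIST1H2BA. CCAAT was in 84.8% of the 66 windows, against 35.7% of all, but in only 3 of 13 H4 windows. TATAAA was in 66.7%, against 11.95% of all. The 2 windows below belong to the genes with the highest FPKM, and both lie across the stretch shared with their paired gene. Motif matches on either strand are in capitals, overlapping matches run together, and the window reads 5′ to 3′ in the direction of the named gene.
HIST1H2BK, chr6:27146806-27147105, minus strand: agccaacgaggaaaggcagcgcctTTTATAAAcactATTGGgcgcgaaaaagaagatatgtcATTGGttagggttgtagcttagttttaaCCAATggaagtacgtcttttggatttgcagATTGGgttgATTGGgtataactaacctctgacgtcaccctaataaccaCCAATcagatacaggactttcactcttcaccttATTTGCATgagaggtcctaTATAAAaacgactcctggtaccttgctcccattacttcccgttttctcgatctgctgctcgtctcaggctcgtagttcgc
HIST3H2A, chr1:228457824-228458123, minus strand: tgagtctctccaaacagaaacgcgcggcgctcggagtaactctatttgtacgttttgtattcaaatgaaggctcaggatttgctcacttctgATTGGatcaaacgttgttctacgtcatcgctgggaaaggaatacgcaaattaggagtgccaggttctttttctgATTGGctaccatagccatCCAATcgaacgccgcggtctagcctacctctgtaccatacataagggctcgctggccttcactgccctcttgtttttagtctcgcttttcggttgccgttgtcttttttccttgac
The HIST1H2BK window held all 3 motifs, and the HIST3H2A window held CCAAT without the octamer or TATAAA in these letters.

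The genes that make, process, chaperone and degrade histone mRNA and protein were read from the main fit, without the GC and length correction. None passed an adjusted p under 0.05 in edgeR. The counts that follow stand beside 6.01% of all tested genes higher and 4.37% lower at an unadjusted p under 0.05, a fold change below 0 in 51.5% and a median log2 fold change of -0.02. Groups did not overlap in 17.7% of all tested genes, in either direction. Without overlap were 1 higher and 1 lower of 11 transcription regulators, and 0 and 2 of 13 processing factors. They were also 0 and 1 of 5 export and translation factors, 0 and 2 of 12 decay factors and 2 and 2 of 20 chaperones. For the replication genes they were 2 and 1 of 30, and for the tested variants 0 and 1 of 11. Of 11 transcription regulators, 7 had a fold change below 0 (median -0.07), and 0 were higher and 1 lower at an unadjusted p under 0.05. That gene was CCNE1, the cyclin E that drives entry into S phase, with non-overlapping values of 20.0, 28.5 and 24.5 CPM in serum-starved libraries and 41.4, 35.5 and 38.9 CPM with FBS (log2 fold change -0.67, SE 0.29, adjusted p = 0.431, edgeR). NPAT, the cyclin E target that organises transcription at histone gene clusters, had a log2 fold change of -0.29 (SE 0.50). CASP8AP2, also known as FLASH, had one of -0.40 (SE 0.69).

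Of 13 stem-loop processing factors, 10 had a fold change below 0 (median -0.18) and 0 had an unadjusted p under 0.05. SLBP had 60.9, 69.4 and 73.0 CPM in serum-starved libraries and 94.0, 71.5 and 77.5 CPM with FBS, which overlapped (log2 fold change -0.26, SE 0.27, adjusted p = 0.799, edgeR). Of 5 export and translation factors, 3 had a fold change below 0 (median -0.29) and 0 had an unadjusted p under 0.05. Of 12 decay factors, 11 had a fold change below 0, with a median of -0.54, and 1 was lower at an unadjusted p under 0.05. That gene was LSM5, a subunit of the Lsm ring that binds the 3′ ends of RNAs marked for decay or processing. It had 11.1, 15.2 and 13.6 CPM in serum-starved libraries and 39.3, 30.8 and 38.3 CPM with FBS, without overlap (log2 fold change -1.44, SE 0.31, adjusted p = 0.0591, edgeR). ERI1, the 3′ exonuclease that trims the stem-loop, had a log2 fold change of -0.69 (SE 0.47) and UPF1, a helicase of RNA decay, -0.05 (SE 0.29).

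Of 20 histone chaperones and partners, 13 had a fold change below 0 (median -0.17), and 2 were lower and 1 higher at an unadjusted p under 0.05. HAT1, which acetylates newly made H4, had 2.72, 5.65 and 6.90 CPM in serum-starved libraries and 23.3, 11.9 and 10.3 CPM with FBS (log2 fold change -1.57, SE 0.44, adjusted p = 0.214, edgeR). ASF1A, a carrier of H3 and H4, had 2.24, 3.56 and 4.57 CPM in serum-starved libraries and 12.2, 6.78 and 6.49 CPM with FBS (-1.29, SE 0.45, adjusted p = 0.321, edgeR). UBN1, of the HIRA complex that deposits H3.3, had 59.4, 65.6 and 89.4 CPM in serum-starved libraries and 47.4, 45.5 and 39.9 CPM with FBS (0.69, SE 0.28, adjusted p = 0.403, edgeR). The groups did not overlap for these 3 genes, and over the 20 for 2 higher and 2 lower. This stands beside 17.7% of all tested genes in either direction. The S phase carriers ASF1B (-0.17, SE 0.31), CHAF1A (-0.15, SE 0.28) and NASP (-0.61, SE 0.31) had smaller log2 fold changes, none with an unadjusted p under 0.05.

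Of 30 DNA replication genes, 15 had a fold change above 0 and 15 below, with a median of -0.0027 on the log2 scale. PCNA, the replication clamp, had 120, 192 and 241 CPM in serum-starved libraries and 247, 179 and 219 CPM with FBS (-0.22, SE 0.31, adjusted p = 0.861, edgeR). POLE, the catalytic subunit of polymerase epsilon, was the single one with an unadjusted p under 0.05, at 282, 228 and 315 CPM in serum-starved libraries and 117, 185 and 182 CPM with FBS (0.77, SE 0.30, adjusted p = 0.391, edgeR). Of the 12 replacement variants, 11 were tested, 10 had a fold change below 0 (median -0.12), and none had an unadjusted p under 0.05.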

How the data were processed

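RNA of 3 serum-starved and 3 FBS libraries of Ovcar8 cells was sequenced after Trizol extraction and preparation with a NEBNext Ultra II kit, per the labels' protocols. STAR 2.6.1, DESeq2 and the build GRCh38 were used by the authors, per the submitters' processing notes; for the counting tool, strand setting and multi-mapped reads nothing was given in the sources used here. Per gene the deposited table holds raw counts and FPKM made by the authors, per the file headers. All 58735 gene identifiers and positions matched GENCODE 29, as did 58708 symbols.

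Counts were tested with edgeR 4.0.16 in R 4.3.3 (TMM scaling, filterByExpr with minimum count 10 and total 15, robust glmQLFit and glmQLFTest, Benjamini-Hochberg over 13772 genes, threshold 0.05). Levels are TMM-scaled CPM; FPKM compared genes. A floor of 3 counts was used, which covers counting error only; the 95% intervals of fold changes come from the edgeR fit and include the scatter between libraries. The members and lists were chosen with earlier results of these data known. Values in every library were given for the 2 members with the highest mean CPM in each class, those with an unadjusted p under 0.05 and those whose groups did not overlap; any tested member could be named with its fold change. List genes were named if their unadjusted p was under 0.05, with 9 others always named. Stem-loops, GC content and lengths came from GENCODE 29 transcripts and promoters from RefSeq. The alternatives were DESeq2 1.42.0 and its size factors, total counts, limma-voom (limma 3.58.1), no or a stricter filter, no robust estimation, a replicate block, a GC and length correction (splines with 5 degrees of freedom), log2(FPKM + 1) and log2(FPKM + 0.1), and each library left out. The tests were tried on simulated data first.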

Additional observations from a re-analysis of the deposited data

How the results depend on the processing

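None of the histone genes passed an adjusted p under 0.05 in any of the 19 alternatives, so the count of 0 did not depend on them. Over all genes, 39 were called, against 25 with total counts alone, 127 with no filter on low counts, 160 with DESeq2, 115 with the GC and length correction, 145 with that correction and a replicate block, 22 with log2(FPKM + 1), 19 with log2(FPKM + 0.1) and 0 with log2(FPKM + 1) and no filter. Leaving out a library gave 4 (without FBS replicate 1) to 257 (without serum-starved replicate 3) calls. Histone genes at an unadjusted p under 0.05 numbered 2 of 23 tested, against 1 with total counts, 0 with limma-voom and 1 with the replicate block. They numbered 4 of 23 with the GC and length correction and 1 of 18 with at least 1 CPM and 10 counts in 3 libraries. With either FPKM scale under the filter they numbered 5 of 30, without it 4 of 59, and with a library left out 0 to 3 of 25 to 28. Outside the main fit and the GC and length correction, the share of all genes at this p was not counted. These moves are therefore not read as a result about the histone genes. Histone genes whose groups did not overlap numbered 1 of 23 tested. They numbered 4 of 59 with no filter, 2 of 30 with either FPKM scale and 4 of 59 with FPKM unfiltered. With a library left out they numbered 2 to 5, with 25 to 28 tested, and smaller groups separate more readily. The share of all genes without overlap was not counted under these alternatives, so the rise is not read as a result about the histone genes. The members' median of -0.17 became 0.18 with the GC and length correction and ran between -0.39 (starved replicate 1 left out) and 0.03 (starved replicate 3 left out). The summed level of all members, as a log2 ratio, ran between -0.24 (starved replicate 1 left out) and 0.22 (starved replicate 3 left out), and no class sum moved by more than the spread between replicates. The sign of the class ratios did change with a library left out: they ran between -0.48 and 0.06 for H1 and -0.35 and 0.12 for H2A, each highest without starved replicate 3. They ran between -0.10 and 0.36 for H2B, -0.11 and 0.20 for H3 and -0.37 and 0.19 for H4, each lowest without starved replicate 1. Detection was 23 genes by the filter, 59 with 1 count and 36 with 10 counts.

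Of 428 values of single genes under an alternative, 33 had the other sign, in 13 of the 23 genes, none of them called. With the GC and length correction these were HIST1H2BH (0.69), HIST1H4I (0.34), HIST1H2AG (0.30), HIST1H3F (0.072), HIST1H3G (0.21) and HIST1H4H (0.18). With that correction and a replicate block they were HIST1H2BH (0.47), HIST1H4I (0.25), HIST1H2AG (0.018), HIST1H3G (0.29) and HIST1H4H (0.25). With a library left out the log2 fold change ran between -0.45 and 0.25 for HIST1H1C, -0.12 and 0.56 for HIST1H2AC, -0.39 and 0.45 for HIST1H2AG, -0.45 and 0.24 for HIST1H2BH, -1.15 and 0.28 for HIST1H3C, -0.38 and 0.074 for HIST1H3F, and -0.44 and 0.076 for HIST1H3G. It ran between -0.50 and 0.46 for HIST1H4H, -0.29 and 0.25 for HIST1H4I, -0.76 and 0.037 for HIST1H4J, -0.12 and 0.71 for HIST2H2AC, -0.16 and 0.78 for HIST2H2BE, and -0.48 and 0.020 for HIST3H2A. It stayed between 0.87 and 1.16 for HIST1H3H, 1.5 and 2.65 for HIST1H2BC and 1.01 and 2.22 for HIST1H2BG. The cause of these moves was not tested.

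Deviations of same-numbered libraries correlated across genes at -0.26, 0.10 and -0.08, and those of unlike-numbered libraries at between -0.24 and 0.26. Same-numbered libraries were thus no more alike than others by this measure. It cannot show whether libraries shared a culture or a day, because differences between whole libraries also enter it. With the replicate block 43 genes and 0 histone genes were called. At 16379416 to 19558484 counts a library, 48 of the 71 genes were below the filter; the part of depth in this was not tested.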
